A study of Mus musculus with 8 samples.

Results

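The genes described here are 36 transcripts that mark T cells, cytotoxic and natural killer (NK) cells, and B cells, out of 41388 genes counted in brown adipose tissue. They were taken by symbol: 19 T cell genes, 10 cytotoxic and NK genes, 6 B cell genes, and Ptprc, which encodes CD45, the surface phosphatase carried by leukocytes in general. Each of the 36 symbols matched 1 row in the 8 count tables. RNA came from brown fat of C57BL/6J mice kept at room temperature on regular chow. Their age is not given in the sources used here. The 4 WT mice carried floxed Nampt alleles (flox/flox) and were labelled wild type. The 4 ANKO mice came from crossing Nampt flox mice with adiponectin-Cre mice, which delete Nampt, the enzyme that makes nicotinamide mononucleotide for NAD+ salvage, in adipocytes. The adiponectin promoter drives Cre in white as well as brown adipocytes, and the lymphocytes themselves are not its target.

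T cells recognise antigen through a receptor that signals by way of the CD3 chains, the kinases Lck and ZAP-70 and the adaptor LAT. Cytotoxic T cells and NK cells kill with perforin and granzymes. B cells signal through CD79A and CD79B beneath their surface immunoglobulin, and their descendants, plasma cells, secrete antibody. Adipose tissue holds resident regulatory T cells, and lymphocyte numbers in fat are known to change with obesity and inflammation. In bulk tissue, more cells of a type and more RNA per cell cannot be told apart, and this holds for each level below.

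Nampt itself was at 484, 484, 571 and 495 CPM in WT1 to WT4 and at 67.4, 69.5, 77.6 and 74.6 CPM in ANKO1 to ANKO4, so each library went with its label. CPM are counts scaled to a library of 1000000, with library sizes adjusted by TMM. Library totals were 21771276 to 49697156 counts in WT and 5738067 to 26426476 in ANKO. Markers of adipocytes summed to 17471 to 24034 CPM in WT and 6343 to 11311 CPM in ANKO, with Ucp1, the uncoupling protein of brown adipocytes, among them. Skeletal muscle markers summed to 33.0 to 2859 CPM in WT and to 9811 to 15012 CPM in ANKO, with all 12 in the tables and none at 0 in all 8 libraries. Muscle RNA therefore moved with genotype, and a fit that takes the muscle marker level into account (the muscle covariate) is given beside each gene whose call it ended or whose fold it moved by over 1.5 times. The same holds for thinning all libraries to the lowest total. Muscle RNA followed genotype, so in that fit the effects of muscle RNA and genotype cannot be fully told apart.

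Lymphocyte genes were scarce in WT brown fat and higher in ANKO brown fat. Of the 36 genes, 33 rose (edgeR adjusted p under 0.05), 2 did not pass the test (Prf1 and Cd79a) and 1 (Pax5) was too low to be tested. None fell. Over all 16705 genes tested, 30.6% rose, 27.6% fell and the median log2 fold change was -0.01, against a median of 3.40 over the 35 tested lymphocyte genes. In 33 of the 36 every ANKO library lay above every WT library, which held for 28.7% of all genes tested. The changes ran from 0.28 (Prf1) to 5.21 (Jchain) on the log2 scale, and 24 genes changed at least 8-fold. These counts describe the list and are not a test of it, since a gene could enter the test through its ANKO levels alone. The filter asked for about 0.423 CPM in 4 libraries, which 12 of the 36 genes reached in all 4 WT libraries and 35 in all 4 ANKO libraries. In WT the median count of a lymphocyte gene in a library was 13, and 59 of 144 values were under 10 counts. In ANKO the median was 39.5 and 9 of 144 values were under 10.

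**Figure D1:**
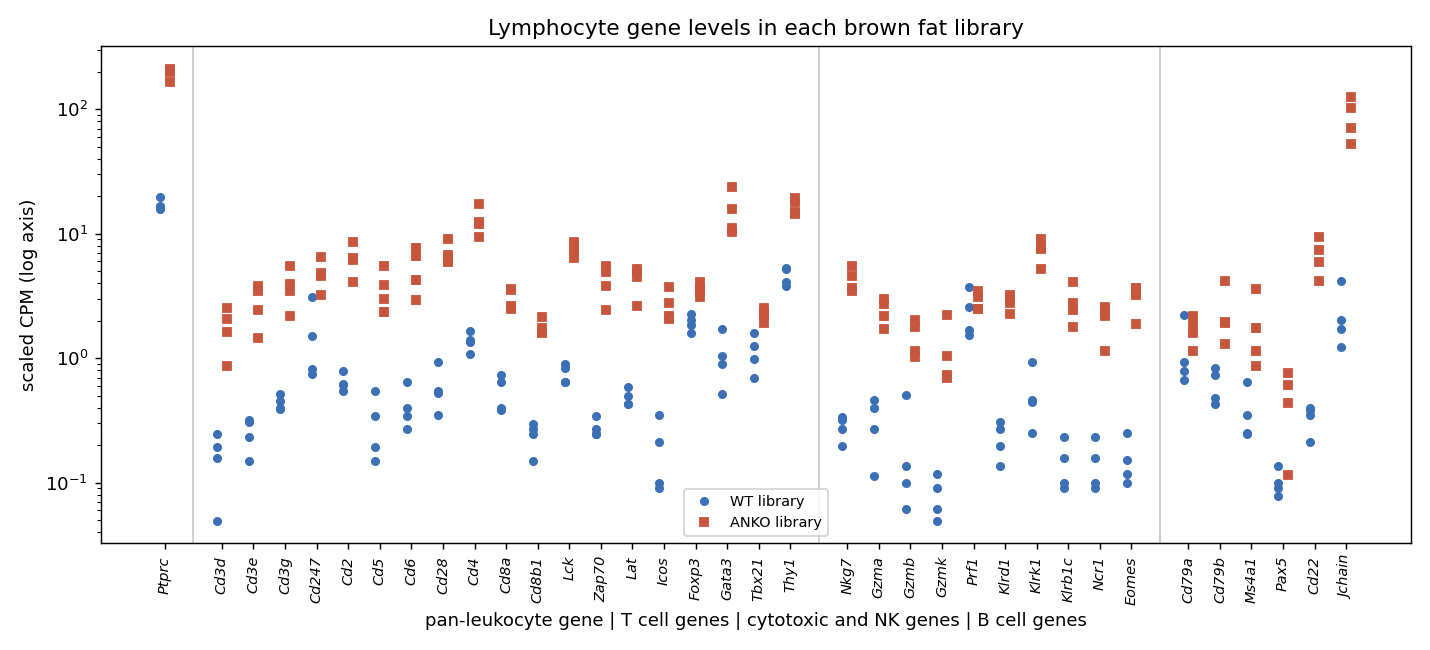
Scaled CPM (log axis) of the 36 lymphocyte genes in each of the 4 WT libraries (blue circles) and 4 ANKO libraries (red squares), in 4 blocks by lineage. Every ANKO library lies above every WT library in 33 genes; the groups overlap in Prf1, Cd79a and Pax5.

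Ptprc was taken as an RNA marker of leukocytes in general. It was at 15.9, 16.6, 16.5 and 19.8 CPM in WT1 to WT4 and at 212, 167, 205 and 199 CPM in ANKO1 to ANKO4. The groups were far apart and each was tight, with means of 17.2 ± 1.72 and 196 ± 20.1 CPM (SD, n = 4 each). This was an 11.4-fold rise, or 3.51 ± 0.12 on the log2 scale (± standard error here and below for log2 changes; edgeR adjusted p = 5.91e-08). Ptprc is on chromosome 1, 138063407 to 138175706, minus strand (GRCm38), and is also carried by macrophages, whose markers rose as well. Of 12 macrophage markers 12 rose, against 30.6% of all genes tested. Their sum went from 177 to 246 CPM in WT to 1291 to 1790 CPM in ANKO.

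Genes of the T cell receptor complex rose together. Cd3e (chromosome 9, 44998743 to 45009590, minus strand) encodes the CD3 epsilon chain. It was at 0.149, 0.233, 0.305 and 0.319 CPM in WT1 to WT4, from 3, 6, 10 and 14 counts. It was at 3.79, 2.42, 3.50 and 1.46 CPM in ANKO1 to ANKO4, from 99, 21, 37 and 10 counts. The groups did not overlap, and ANKO4, the shallowest library, was the lowest of its group. The change was 10.8-fold (3.44 ± 0.36 on the log2 scale, edgeR adjusted p = 2.64e-05). With the muscle covariate the change of Cd3e was 4.21 ± 0.77 on the log2 scale. Cd3g and Cd3d, which lie beside it on chromosome 9 and encode the gamma and delta chains, rose 8.65-fold and 10.6-fold. Cd247, which encodes the zeta chain, rose less, 3.28-fold. Its WT libraries were spread from 0.751 CPM in WT4 to 3.12 CPM in WT1, against 3.21 to 6.50 CPM in ANKO. The change of Cd247 was 2.26 on the log2 scale without WT1, 1.09 without WT3 and WT4, and 0.44 once the muscle marker level was fitted too, where it was no longer called (edgeR adjusted p = 0.683). In GENCODE M21, 3007 of its 5329 exon bases are shared with Pou2f1 on the opposite strand, whose mean was 1.74 CPM in WT mice and 1.87 CPM in ANKO mice. On the same strand, 206 bases are shared with the transcript Gm16565, which was not called. Gm16565 was at 3.96, 1.67, 0.610 and 0.660 CPM in WT1 to WT4. In ANKO1 to ANKO4 it was at 4.71, 3.34, 2.46 and 2.33 CPM. The part of these overlaps in the level of Cd247 was not tested.

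The kinases and adaptors downstream of the receptor rose as well. Lck (chromosome 4, 129548344 to 129573641, minus strand), the kinase that phosphorylates the CD3 chains, was at 0.644, 0.893, 0.641 and 0.842 CPM in WT1 to WT4. It was at 8.65, 6.34, 7.85 and 7.43 CPM in ANKO1 to ANKO4, so its ANKO libraries were closer together than those of Cd3e. Lck rose 9.95-fold (standard error 0.20 on the log2 scale). Zap70, the kinase recruited to the phosphorylated chains, was at 0.244 to 0.341 CPM in WT and at 5.55, 2.42, 4.92 and 3.79 CPM in ANKO1 to ANKO4, a rise of 14.8-fold. The adaptor gene Lat rose 8.89-fold, from 0.427 to 0.592 CPM in WT to 2.62 to 5.24 CPM in ANKO.

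Upstream sequences of 2 of these genes are shown because Lck and Cd3e rose together and because both hold letters of the ETS motif, a family of factors known to act on T cell genes. They are the 250 bases before the RefSeq start on GRCm38.p6, 5′ to 3′, with every match to a searched motif in capitals on either strand.
Lck (chr4:129573642-129573891, minus strand): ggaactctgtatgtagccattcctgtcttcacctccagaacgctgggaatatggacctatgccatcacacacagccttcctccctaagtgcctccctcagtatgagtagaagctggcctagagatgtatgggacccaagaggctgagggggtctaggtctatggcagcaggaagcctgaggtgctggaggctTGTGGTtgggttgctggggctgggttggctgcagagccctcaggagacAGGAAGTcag
Cd3e (chr9:45009612-45009861, minus strand): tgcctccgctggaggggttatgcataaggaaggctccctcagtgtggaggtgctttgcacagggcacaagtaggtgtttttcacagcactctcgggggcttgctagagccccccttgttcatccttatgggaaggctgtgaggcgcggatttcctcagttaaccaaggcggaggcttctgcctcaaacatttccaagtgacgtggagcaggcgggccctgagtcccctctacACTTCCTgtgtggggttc
The capitals mark AGGAAGT (ETS) and TGTGGT (RUNX) in the window of Lck, and the reverse complement of AGGAAGT in that of Cd3e. RefSeq windows were found for 26 of the 36 genes. The ETS letters were in a window of 9 of the 26 genes (34.6%) and of 8.80% of 27025 genes with a window. The RUNX letters were in 9 of the 26 (34.6%) and in 15.9% of all genes. The octamer ATTTGCAT was in 0 of the 26 and in 1.81% of all genes, CAGCTG (E2A) in 2 and 14.7%, TTCNNNGAA (GAS) in 3 and 8.13%, and the ISRE core (GAAA, any 2 bases, GAAA) in 2 and 3.46%. A match is a description of letters, not of a bound site.

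Surface receptors of T cells followed the CD3 genes. Cd2, an adhesion receptor, rose 9.71-fold, from 0.545 to 0.797 CPM in WT to 4.08 to 8.57 CPM in ANKO. The modulators of receptor signalling Cd5 and Cd6, which lie close together on chromosome 19, rose 11.5-fold and 13.1-fold. The costimulatory receptor genes Cd28 and Icos rose 12.2-fold and 14.6-fold. For Icos this rested on 2, 9, 7 and 4 counts in WT1 to WT4 and on 98, 18, 23 and 19 counts in ANKO1 to ANKO4. In these 5 genes no WT library reached any ANKO library. On the log2 scale the change of Cd5 was 3.53, and it was 4.39 without WT3 and WT4 and 4.98 ± 0.82 with the muscle covariate. With that covariate Cd6 went from 3.71 to 4.47 and Icos from 3.87 to 2.92. After thinning Cd2 was at 4.46, in place of 3.28, and Icos at 4.64. All of these changes kept their call.

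Both coreceptor lineages rose. Cd4, the coreceptor of helper and regulatory T cells, which some macrophages also express, was at 1.09, 1.40, 1.65 and 1.34 CPM in WT1 to WT4. It was at 17.5, 12.3, 12.01 and 9.47 CPM in ANKO1 to ANKO4, a rise of 9.37-fold (edgeR adjusted p = 1.94e-06). Cd8a, a chain of the coreceptor of cytotoxic T cells, was at 0.396, 0.738, 0.641 and 0.387 CPM in WT1 to WT4 and at 3.52, 2.65, 3.59 and 2.48 CPM in ANKO1 to ANKO4. Cd8a rose 5.73-fold, and Cd8b1, its partner chain, rose 7.15-fold. Per kb, the level of Cd8a was 0.504 of that of Cd4 in WT and 0.315 in ANKO (geometric means). The log2 ratio fell by 0.68 in ANKO, which missed the threshold (exact two-sided permutation test, p = 0.0571, adjusted p = 0.0857 over 6 gene ratios).

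The T cell transcription factors did not move alike. Foxp3, the factor of regulatory T cells, was at 1.58, 2.02, 1.86 and 2.28 CPM in WT1 to WT4 and at 3.10, 3.57, 4.07 and 3.50 CPM in ANKO1 to ANKO4. The groups did not overlap, but the rise was 1.81-fold (0.86 ± 0.19 on the log2 scale, edgeR adjusted p = 0.00314), the smallest of the 19 T cell genes. It was no longer called with the muscle covariate, at 1.03 ± 0.36 (edgeR adjusted p = 0.0664). Foxp3 stood above Cd3e in WT, at 0.485 ± 0.0726 against 0.175 ± 0.0544 CPM per kb (SD, n = 4), and below it in ANKO, at 0.892 ± 0.0996 against 1.94 ± 0.743. In GENCODE M21 its exons share bases with 4 other genes, among them Flicr on the same strand (853 of 4577 bases) and, on the opposite strand, Ccdc22 (590 bases) and Ppp1r3f (266 bases). Ppp1r3f was the most abundant of these, with means of 6.14 CPM (WT) and 6.54 CPM (ANKO), above Foxp3 in both groups, and was not called. Flicr averaged 0.756 CPM in WT mice, against 1.28 CPM in ANKO mice, and was not called. How the counting treated shared bases is not given in the sources used here. Tbx21, which encodes T-bet, the factor of type 1 T cells and NK cells, was at 0.990, 0.699, 1.25 and 1.59 CPM in WT1 to WT4 and at 1.91, 2.54, 2.27 and 2.33 CPM in ANKO1 to ANKO4. Its rise was 1.93-fold (edgeR adjusted p = 0.0133), and no other GENCODE M21 gene shares its exons. With the muscle covariate its log2 change was 1.96 ± 0.42, in place of 0.95 ± 0.27.

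Gata3 and Thy1 are also expressed outside lymphocytes. Gata3, the factor of type 2 T cells and innate lymphoid cells, is known in adipocyte precursors too. It was at 0.891, 1.71, 0.519 and 1.05 CPM in WT1 to WT4 and at 10.4, 15.8, 11.2 and 23.7 CPM in ANKO1 to ANKO4, a rise of 14.5-fold. ANKO4, the lowest library for 11 of the 19 T cell genes, was the highest for Gata3. With the muscle covariate its log2 change was 3.05 ± 0.68, in place of 3.86. Thy1, a surface glycoprotein of T cells, fibroblasts and neurons, had the highest T cell gene level per kb in both groups, at 2.65 ± 0.439 in WT and 9.62 ± 1.39 CPM per kb in ANKO. It rose 3.60-fold, and 7 of 8 fibroblast and progenitor markers rose too, against 30.6% of all genes tested. The 8 markers summed to 818 to 1163 CPM in WT and to 3438 to 6267 CPM in ANKO. Their part in the levels of Gata3 and Thy1 was not tested.

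**Figure D2:**
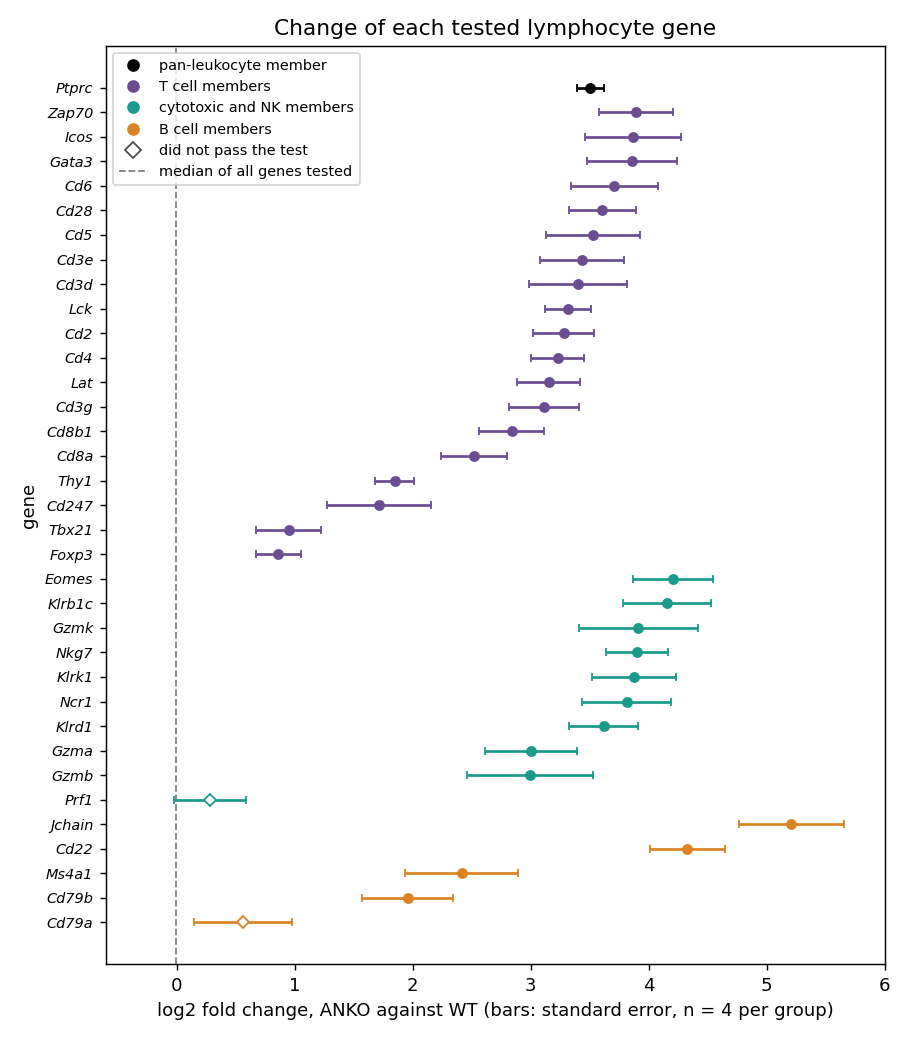
Log2 fold change of each tested lymphocyte gene, ANKO against WT, with its standard error (n = 4 per group), coloured by lineage; open diamonds did not pass the test and the dashed line is the median of all genes tested. At least an 8-fold rise was fitted for 24 of the 35 genes, while Foxp3, Tbx21, Prf1 and Cd79a lie under 1 and Jchain at 5.21.

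Cytotoxic and NK genes rose in 9 of 10 cases, with a median log2 fold change of 3.84. Nkg7 (chromosome 7, 43437073 to 43438246, plus strand), a granule membrane protein of cytotoxic lymphocytes, was at 0.198, 0.272, 0.336 and 0.319 CPM in WT1 to WT4. It was at 5.55, 3.69, 4.54 and 3.50 CPM in ANKO1 to ANKO4, a rise of 14.9-fold (3.90 ± 0.26 on the log2 scale, edgeR adjusted p = 1.6e-06). The granzyme genes encode serine proteases that trigger death of the target cell. Gzma was at 0.114 to 0.458 CPM in WT and 1.70 to 2.996 CPM in ANKO, and rose 8.01-fold. Gzmb rose 7.97-fold, with 2, 13, 2 and 6 counts in WT1 to WT4, so that WT2 stood above the other WT libraries. Without WT2 its log2 fold change was 3.86 in place of 2.99, without WT3 and WT4 it was 2.27, and with the muscle covariate it was 1.38 and not called (edgeR adjusted p = 0.271). Gzmk was the scarcest in WT, with 1, 3, 2 and 4 counts, and had 58, 6, 11 and 5 counts in ANKO1 to ANKO4. Its log2 fold change was 3.91, and 3.27 without ANKO1.

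Receptors of NK cells had some of the larger changes. Klrb1c, which encodes the NK1.1 antigen, was at 0.0915 to 0.233 CPM in WT and at 2.45, 2.77, 1.80 and 4.08 CPM in ANKO1 to ANKO4, a rise of 17.8-fold. Ncr1, which encodes the activating receptor NKp46, rose 14.1-fold, with 2, 6, 3 and 7 counts in WT1 to WT4 and 67, 10, 26 and 15 counts in ANKO1 to ANKO4. Klrk1, the activating receptor NKG2D of NK and CD8 T cells, rose 14.6-fold, from 0.250 to 0.932 CPM in WT to 5.20 to 9.11 CPM in ANKO. With the muscle covariate the log2 change of Klrk1 was 2.70 ± 0.55, in place of 3.87, and after thinning that of Klrb1c was 5.42 ± 0.66, in place of 4.16. Klrd1, the CD94 chain that pairs with NKG2 receptors, rose 12.3-fold. Eomes, the T-box factor of NK cells and memory CD8 T cells, was at 0.0990, 0.117, 0.153 and 0.250 CPM in WT1 to WT4 and at 3.67, 3.23, 3.59 and 1.89 CPM in ANKO1 to ANKO4. It rose 18.4-fold, while the related factor gene Tbx21 rose 1.93-fold. The size of this gap moved with the processing: the log2 change of Eomes was 5.49 with the muscle covariate and 3.44 after thinning, and that of Tbx21 was 1.96 with the covariate. The difference between these genes was not tested. Per kb, Tbx21 stood above Eomes in WT, at 0.456 ± 0.153 against 0.0372 ± 0.0163 CPM per kb. In ANKO the values were 0.909 ± 0.104 and 0.745 ± 0.199, within about 1 SD of Eomes.

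Prf1 was the exception among these 10 cytotoxic and NK genes, while some other cytotoxic genes, described further below, did not rise either. Prf1 encodes perforin, the pore-forming protein that lets granzymes into the target cell. Prf1 (chromosome 10, 61297836 to 61304263, plus strand) was at 3.76, 1.67, 1.53 and 2.57 CPM in WT1 to WT4, from 43 to 113 counts. It was at 2.49, 3.46, 3.12 and 2.48 CPM in ANKO1 to ANKO4, so the groups overlapped. On the log2 scale Prf1 differed by 0.28 ± 0.30 (edgeR adjusted p = 0.451), and 0.54 without WT1 (adjusted p = 0.0957). Per kb, Prf1 in WT, at 1.16 ± 0.501 CPM per kb, stood above the rest of these 10 genes, Nkg7 among them at 0.320 ± 0.0701. Some cytotoxic genes outside these 10 stood higher than Prf1 in WT. Among them Gzmm, at 2.17 ± 0.440 CPM per kb, and Cst7, at 6.89 ± 1.47, did not rise in ANKO. Ctsw, at 1.32 ± 0.166 CPM per kb in WT, did rise. No other GENCODE M21 gene shares the exons of Prf1.

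The upstream windows of Ncr1 and Prf1 are shown because both hold RUNX letters while only the transcript of Ncr1 passed the test.
Ncr1 (chr7:4337474-4337723, plus strand): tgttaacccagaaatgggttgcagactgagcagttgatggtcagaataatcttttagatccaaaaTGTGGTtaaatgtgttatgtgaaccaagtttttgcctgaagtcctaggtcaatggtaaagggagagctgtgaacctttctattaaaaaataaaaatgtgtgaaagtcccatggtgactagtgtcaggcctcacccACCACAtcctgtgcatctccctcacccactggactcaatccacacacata
Prf1 (chr10:61297586-61297835, plus strand): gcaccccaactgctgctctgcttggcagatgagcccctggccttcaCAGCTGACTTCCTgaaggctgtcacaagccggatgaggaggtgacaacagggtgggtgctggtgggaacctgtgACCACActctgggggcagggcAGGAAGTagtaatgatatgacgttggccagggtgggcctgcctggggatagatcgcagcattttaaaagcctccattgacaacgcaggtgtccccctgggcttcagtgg
The capitals mark TGTGGT or its reverse complement in both windows and, in that of Prf1, CAGCTG and AGGAAGT or its reverse complement as well. RUNX letters were therefore upstream of both the gene that rose and the gene that did not pass the test, while the other letters were in the window of Prf1 and not in that of Ncr1. RUNX letters were found upstream of 7 of the cytotoxic and NK genes and of Lck and Zap70.

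The B cell genes split. Jchain (chromosome 5, 88520512 to 88527891, minus strand), the chain that joins secreted IgA and IgM into polymers, is a gene of plasma cells. It was at 1.24, 2.02, 1.71 and 4.16 CPM in WT1 to WT4 and at 52.3, 126, 103 and 71.0 CPM in ANKO1 to ANKO4. This was the largest change of the 36 genes, 36.9-fold (5.21 ± 0.45 on the log2 scale, edgeR adjusted p = 2.58e-05). With the muscle covariate it was 6.24 ± 0.80 on the log2 scale. Cd22, an inhibitory coreceptor of B cells, was at 0.214 to 0.396 CPM in WT and at 7.46, 4.15, 9.46 and 5.97 CPM in ANKO1 to ANKO4, a rise of 20.1-fold. Ms4a1, which encodes CD20, rose 5.34-fold, with 13, 9, 8 and 11 counts in WT1 to WT4 and 46, 10, 38 and 6 counts in ANKO1 to ANKO4. Cd79b, a signalling chain of the B cell receptor, rose 3.88-fold, from 0.427 to 0.842 CPM in WT to 1.31 to 4.16 CPM in ANKO. Ms4a1 and Cd79b were no longer called with the muscle covariate, at 1.46 and 1.11 on the log2 scale with standard errors of 0.91 and 0.68.

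Cd79a, the partner chain of Cd79b, did not pass the test. It was at 2.23, 0.932, 0.671 and 0.797 CPM in WT1 to WT4 and at 1.15, 1.84, 2.18 and 1.603 CPM in ANKO1 to ANKO4. WT1 was higher than any ANKO library, and the other WT libraries were lower than all of them. On the log2 scale Cd79a differed by 0.56 ± 0.41 (edgeR adjusted p = 0.265). Without WT1 it was 1.02 and was called (adjusted p = 0.0147). With the muscle covariate the log2 change of Cd79a was -0.36, not called. Pax5, the master factor of B cell identity, had 2, 2, 3 and 6 counts in WT1 to WT4 and 16, 1, 8 and 3 counts in ANKO1 to ANKO4, too few for the filter. With no filter on low counts its change was 4.51-fold (edgeR adjusted p = 0.00497), and with DESeq2 4.71-fold (adjusted p = 0.00707). It also passed both the filter and the test without WT1, WT2, WT3, WT4 or ANKO2 in turn, where it changed 4.36-fold to 5.62-fold.

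The ANKO libraries did not rank alike across the lineages. ANKO1 was the highest ANKO library for 13 of 19 T cell genes and 6 of 10 cytotoxic and NK genes, and for 0 of 6 B cell genes. ANKO3 was the highest for 5 of 6 B cell genes, and the remaining one, Jchain, was highest in ANKO2 and lowest in ANKO1. ANKO4 was the lowest for 11 of 19 T cell genes, among them each CD3 chain. With 4 libraries these ranks carry no test, and ANKO1 was also the deepest ANKO library and ANKO4 the shallowest. In WT, WT1 was the highest library for Cd79a, Cd79b, Ms4a1 and Cd22 and the lowest for 8 of 19 T cell genes.

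**Figure D3:**
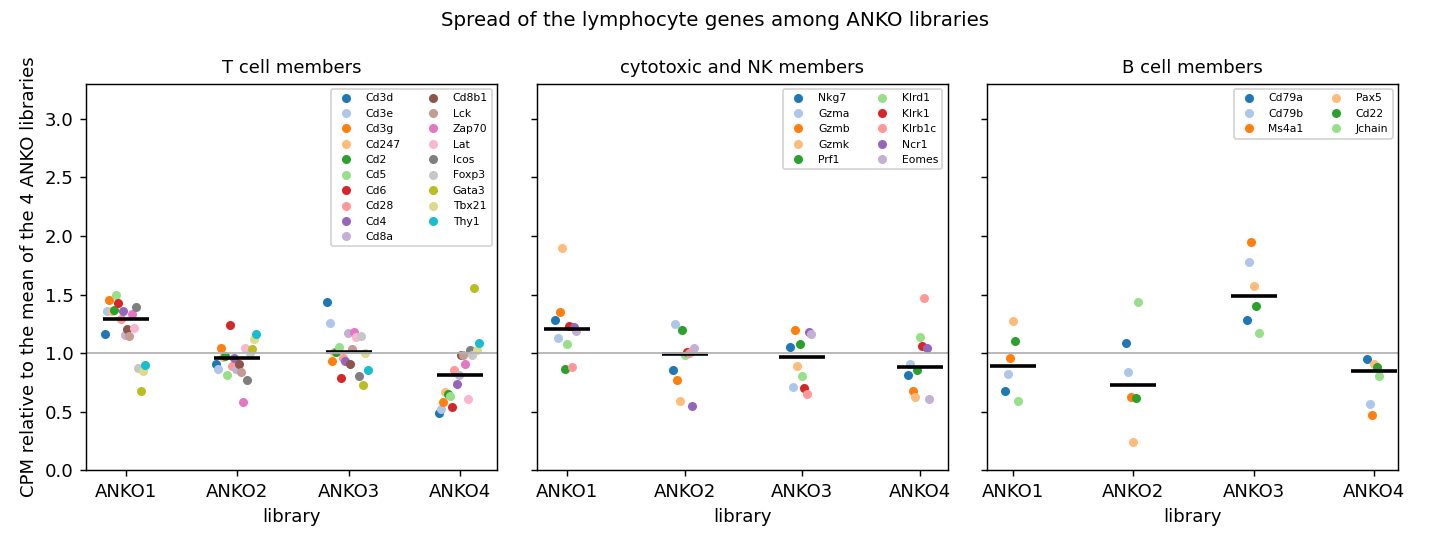
CPM of each lymphocyte gene in the 4 ANKO libraries, divided by the mean of those 4 libraries, in 3 panels by lineage; the black bar is the median over the genes of a panel and the grey line is 1. T cell genes lie highest in ANKO1 for 13 of 19 genes and B cell genes highest in ANKO3 for 5 of 6.

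Ratios between genes, which need no scaling of library size, set the levels of gene pairs side by side in each library. Each is a ratio of counts per kb with 0.5 added to each count. The ratio of Cd3e to Ptprc was 0.188 in WT and 0.170 in ANKO (geometric means), beside rises of 10.8-fold in Cd3e and 11.4-fold in Ptprc. Its log2 difference was -0.15, with SDs of 0.35 in WT and 0.57 in ANKO, and 6 gene ratios were tested (exact two-sided permutation test, p = 0.686, adjusted p = 0.823). In ANKO4 it was 0.0949, against 0.184 to 0.222 in the other ANKO libraries. The ratio of Lck to Adgre1, which encodes the macrophage antigen F4/80, was 0.0842 in WT and 0.0836 in ANKO (exact permutation p = 0.943). These tests do not show that the ratios were equal.

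A further 3 ratios did not overlap between the groups. The ratio of Foxp3 to Cd3e was 3.34, 2.91, 2.11 and 2.495 in WT1 to WT4 and 0.295, 0.527, 0.418 and 0.840 in ANKO1 to ANKO4. Its log2 ratio dropped by 2.47. The ratio of Cd79a to Cd3e was 12.8, 3.71, 2.11 and 2.41 in WT1 to WT4 and 0.302, 0.756, 0.618 and 1.08 in ANKO1 to ANKO4, and its log2 ratio dropped by 2.66. The ratio of Nkg7 to Cd3e went up, from 1.64 to 2.10 in WT to 2.12 to 3.82 in ANKO, by 0.51 on the log2 scale. Each had an exact permutation p of 0.0286, the smallest that 4 against 4 libraries allow, and an adjusted p of 0.0571 over the 6 ratios, which missed the threshold. At this smallest p a ratio passes only if at least 4 of the 6 ratios reach it, and 3 did. The miss therefore does not speak to the size of these differences. With 2 added to each count these 3 ratios and that of Cd8a to Cd4 had an adjusted p of 0.0429. After thinning, the difference was -1.37 for Cd79a to Cd3e (exact permutation, adjusted p = 0.206) and -0.85 for Cd3e to Ptprc (adjusted p = 0.0571). The 3 ratios to Cd3e share that gene's low WT counts.

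**Figure D4:**
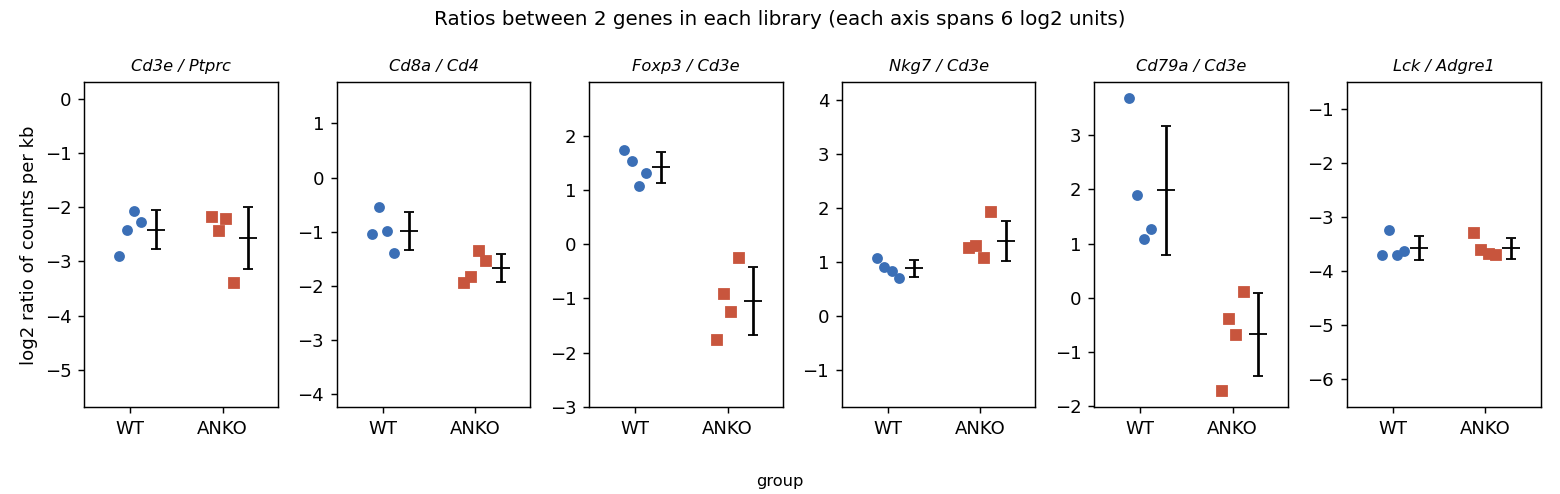
Log2 ratio of counts per kb between 2 genes in each library, WT (blue circles) and ANKO (red squares), with mean and SD (n = 4 each); each axis spans 6 log2 units. Cd3e to Ptprc and Lck to Adgre1 overlap between groups, and Foxp3 to Cd3e and Cd79a to Cd3e are lower in every ANKO library.

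Other genes of the same lineages were listed by function and not as members, with earlier results of these data known. Those low in WT could enter the test through their ANKO levels alone, so their counts are a description and not further evidence. Over all genes tested, 30.6% rose and 27.6% fell. Of 39 other T cell genes counted, 33 rose, 0 fell, 2 did not pass and 4 were too low to be tested, with a median log2 fold change of 3.31 over those tested. The members with the smallest p were Fyb, an adaptor of T cells and myeloid cells (2.46 CPM in WT and 28.2 CPM in ANKO, 11.4-fold), the adaptor gene Lcp2 (9.08-fold) and Il2rb, a chain of the receptors for interleukin 2 and interleukin 15 (12.1-fold). The constant regions of the T cell receptor, Trac, Trbc1 and Trbc2, are in this list and rose, with log2 fold changes of 2.24, 4.03 and 3.54, chosen for naming after their values were seen. Ikzf2 and Lag3 did not pass, with means of 35.8 CPM (WT) and 36.5 CPM (ANKO) for Ikzf2 and of 5.94 CPM (WT) and 5.83 CPM (ANKO) for Lag3.

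Of 27 other cytotoxic and NK genes 20 rose, 2 fell, 3 did not pass and 2 were too low. Gzmm, a further granzyme gene, and Cd160 were among those that did not pass. Gzmm had means of 3.19 CPM (WT) and 2.55 CPM (ANKO), a log2 fold change of -0.34. Cd160 had means of 2.83 CPM (WT) and 3.13 CPM (ANKO). Slamf7, a receptor of NK and plasma cells, rose 18.1-fold, Tyrobp, the DAP12 adaptor that macrophages also express, 13.8-fold, and Il18rap, a chain of the interleukin 18 receptor, 13.7-fold. The 2 that fell were S1pr5, a sphingosine 1-phosphate receptor, from 6.20 to 0.799 CPM (7.56-fold lower), and Cst7, which encodes cystatin F, from 6.79 to 3.50 CPM (1.92-fold lower). For each of these 2 every ANKO library lay below every WT library, which held for 26.4% of all genes tested.

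Of 23 other B and plasma cell genes counted, 19 rose, 0 fell, 1 did not pass and 3 were too low. Cd72, a coreceptor of B cells, rose 15.6-fold, the kinase gene Btk, which myeloid cells also express, 10.6-fold, and Cd180, a Toll-like receptor homologue of B cells and macrophages, 30.3-fold. The member that did not pass was Fcer2a, which encodes CD23, with means of 0.852 CPM (WT) and 0.859 CPM (ANKO).

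Markers of tissues that carry lymphocytes were measured beside them. Lymph node stroma markers summed to 1.07 to 1.90 CPM in WT and to 1.61, 3.69, 3.03 and 8.89 CPM in ANKO1 to ANKO4. ANKO1 lay within the WT range and the other ANKO libraries lay above it. Of the 8 listed, 7 were in the tables, and Ccl21a and Chst4 were at 0 counts in all 8 libraries. Ccl21a has near-identical copies, so its count is uncertain. Of the 2 tested, Cxcl13, a chemokine that attracts B cells, rose from 0.249 to 1.08 CPM, and Tnfsf11 did not pass the test. The log2 fold changes of these 2 genes ran from 2.01 to 2.19. Dendritic cell markers rose in 7 of 10 cases, among them Itgax (31.6-fold), which macrophages also express, and Zbtb46 fell 1.30-fold. Endothelial markers fell in 4 of 7 cases and rose in 0, with a median log2 fold change of -0.36. Over all genes tested, 30.6% rose and 27.6% fell. The 7 endothelial markers therefore did not share the rise.

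**Figure D5:**
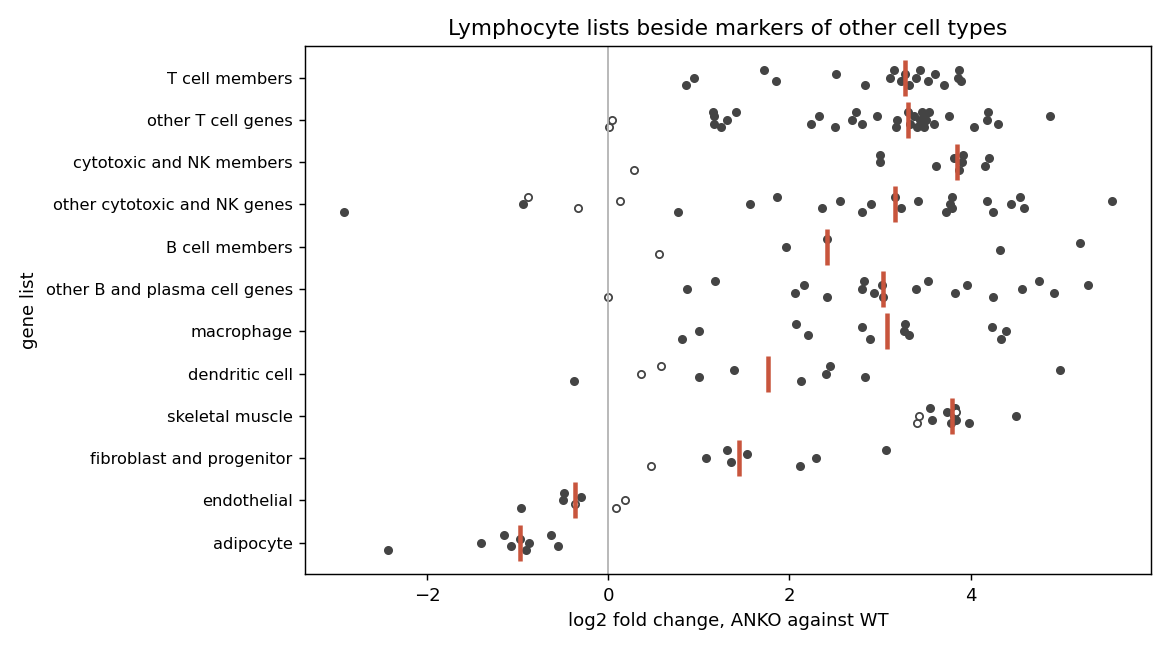
Log2 fold change, ANKO against WT, of each tested gene in the 3 lymphocyte lists, the 3 lists of other genes of those lineages and 6 lists of markers of other cell types; filled points passed the test, open points did not, and the red bar is the list median. The T cell, cytotoxic and B cell lists have medians of 3.28, 3.84 and 2.42, macrophage markers 3.07, and adipocyte markers -0.98.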

How the data were processed

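Total RNA of 8 brown fat samples was depleted of ribosomal RNA with Ribo-Zero Gold, per the labels' protocols. The submitters' processing notes name STAR 2.0.4b, Subread, featureCounts 1.45 and GRCm38. The sources used here do not give the annotation release, the strand setting or the treatment of multiply mapped reads. Per the file headers, every table gives for each gene an RPKM, a CPM and a whole-number count. That CPM, as deposited, is the count scaled to a table total of 1000000, and the deposited RPKM is that CPM per kb of gene length. Only these deposited counts, with the gene lengths, were used.

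Symbols came from GENCODE M21 by Ensembl ID, matching 40340 of 41388 genes, and 355 rRNA rows were left out (0.801% to 3.53% of counts). A level of 3 counts was 0.0683 to 0.437 scaled CPM, counting error only. Groups were taken from titles. The replicates are mice, per the series design. No pair of libraries agreed within sampling noise (lowest chi-square per degree of freedom 6.92).

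The test was edgeR 4.0.16 (R 4.3.3): filterByExpr by group, TMM, robust quasi-likelihood, Benjamini-Hochberg over 16705 genes, called under 0.05. Standard errors were derived from the F statistic. A given fold change is the fitted one. The fit was tested on simulated data. Alternatives were other scalings and filters, DESeq2 1.42.0, limma-voom (limma 3.58.1), a block for the replicate number, leaving out each library, nuclear protein-coding genes, a muscle covariate, thinning to 5692111 counts, and stricter thresholds. Leaving out WT3 and WT4 together, the WT libraries with the least muscle RNA, was added after seeing the data. Gene ratios used exact permutation tests with scipy 1.17.1. Figures used matplotlib 3.10.9.

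The members and lists were chosen with earlier results of these data known. Named genes are Nampt, the members and, from each other list, up to 3 called genes with the smallest p in each direction. Others are named as exceptions or as named after their values were seen. Promoter sequences are from RefSeq (GRCm38.p6). Windows were not found for Cd2, Cd6, Cd28, Cd4, Cd8b1, Icos, Thy1, Klrd1, Cd79b and Ms4a1. A result for 1 listed gene is not reported here.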

Additional observations from a re-analysis of the deposited data

Results flagged for a closer look

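Dixon's test at 95% was applied to the 4 libraries of each group for the 36 genes and 6 ratios, 84 groups in all, of which chance flags about 1 in 20. It singled out 3 values. Gzmb in WT2 was at 0.505 CPM, from 13 counts, while the other WT libraries lay at 0.0610 to 0.137 CPM. Cd79a in WT1 was at 2.23 CPM, from 45 counts, while the other WT libraries lay at 0.671 to 0.932 CPM. The log2 ratio of Lck to Adgre1 in WT2 was -3.24, while the other WT libraries lay at -3.71 to -3.63.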

How the results depend on the processing

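The count of rising T cell genes stayed at 19 of 19 with each library left out, under both other scalings, with no filter and with limma-voom and DESeq2. Its lowest value over all alternatives was 17. Foxp3 (0.86) and Tbx21 (0.95) did not reach a log2 change of 1. Tbx21 (edgeR adjusted p = 0.0133) also did not pass at 0.01. Of the 35 lymphocyte genes tested, 5 lost their call with the muscle covariate (Cd247, Foxp3, Gzmb, Cd79b and Ms4a1) and 1 gained it without WT1 (Cd79a). In the other fits of all libraries or without some, no member changed its call among those tested. With the covariate, which followed genotype, 3887 genes were called in place of 9726, and 2 B cell genes rose in place of 4. Asking also for a 2-fold change left 4786 called genes. Thinning left 2 B cell genes tested, both of which rose, and 11 of 16 other cytotoxic and NK genes rose in place of 20 of 25. Here fewer genes were tested. Cd79a had a log2 fold change of -0.36 with the covariate, not called. Leaving out 1 library at a time gave 8942 to 10467 called genes, 33 to 35 rising lymphocyte genes and 4 to 6 rising B cell genes.

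With 2 added to each count the log2 ratios differed between groups by -0.71 (Cd8a to Cd4), -2.26 (Foxp3 to Cd3e), 0.51 (Nkg7 to Cd3e) and -2.42 (Cd79a to Cd3e), each with an adjusted p of 0.0429 by exact permutation. With 3 against 4 libraries the smallest exact permutation p is 0.0571, so leaving a library out could not pass.

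No clear pairing of the mice by replicate number was seen: same-numbered libraries deviated from their group means with correlations of 0.11, -0.01, 0.07 and -0.05. For replicates 1 and 3, but not 2 and 4, the same-numbered ANKO library was the best match of the WT library. These correlations do not show that the mice were unpaired. With the number as a block 9239 genes were called and 33 lymphocyte genes rose, 19 T cell, 9 cytotoxic and NK, and 4 B cell genes, and no member changed its call. The paired permutation of 4 differences cannot go below an exact p of 0.125.

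Low counts limit the WT levels most: 19 of 144 WT values rest on 3 counts or fewer, against 2 of 144 in ANKO. A fold against these WT values is correspondingly uncertain.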

Other observations

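Immunoglobulin constant regions, chosen after their values were seen, were higher in ANKO along with Jchain. Igha, the constant region of IgA, was at 4.21, 5.90, 2.99 and 11.3 CPM in WT1 to WT4 and at 233, 495, 329 and 265 CPM in ANKO1 to ANKO4 (53.5-fold, edgeR adjusted p = 2.17e-05). It was the most abundant heavy chain constant region in ANKO2, ANKO4 and ANKO1, while Ighm, that of IgM, was higher in ANKO3, at 386 CPM against 329 CPM. Igkc, the kappa light chain, rose 39.3-fold and Ighm 27.0-fold. Among the IgG genes Ighg2c rose 22.3-fold and Ighg2b 28.6-fold. Ighg3 was at 2.03, 19.02, 30.3 and 1.46 CPM in ANKO1 to ANKO4, a wide spread beside WT levels of 0.0305 to 0.0777 CPM. Ighg1 was at 0.765 CPM in ANKO1, below WT4 at 1.12 CPM, although its mean rose (edgeR adjusted p = 0.0145). Ighe was at 0 counts in all 8 libraries. Of 103 kappa and 108 heavy chain V segments counted, 16 and 18 were tested. All of these rose, against 30.6% of all genes tested. In WT the kappa segments summed to 0.693 to 4.10 CPM and the heavy chain segments to 1.63 to 4.53 CPM. Segments could therefore enter the test through their ANKO levels alone, and these counts are not a test of the families. Near-identical sequences make single segments uncertain. For comparison, the B cell surface gene Ms4a1 rose 5.34-fold, and the difference between it and the immunoglobulin genes was not tested.

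The killer cell lectin-like receptor genes, by symbols that begin with Klr, were also chosen after their values were seen. Of 30 counted, 20 were tested, of which 19 rose and 0 fell, against 30.6% of all genes tested that rose. Those low in WT could enter the test through their ANKO levels alone. The 30 genes summed to 5.59 to 7.38 CPM in WT and to 35.7 to 44.0 CPM in ANKO. The family has near-identical members whose reads the counting could split.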
